A study of Mus musculus with 8 samples.

Results

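The line of keratinocytes that carried both human integrin subunits, α3 and α9, was set against its parent line, which carried neither. Of the 8 arrays of the series, 4 belonged to these lines, 2 to the α3α9 line and 2 to the parent, and all 23332 transcript clusters of the array were compared. The other 4 arrays, 2 of a line with α3 alone and 2 of a line with α9 alone, served to ask which changes of the α3α9 line went beyond those of either single subunit.

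The α3α9 line and the α3 line were made from MK546 cells, mouse epidermal keratinocytes from newborn animals without the mouse α3 subunit, by stable transfection of human α3, and the α9 and α3α9 lines by retroviral transduction of human α9. The parent MK546 cells are called the null line. All 4 lines carry the SV40 large T antigen, a viral protein that immortalizes cells and binds p53 and the RB proteins. All grew at 33 °C on denatured collagen. Their medium held calcium at 0.05 mM, interferon-γ at 10 units per ml, hydrocortisone at 0.4 µg per ml, insulin and EGF at 10 ng per ml. Each combination of subunits was 1 line, and the labels do not say whether a line was a clone or whether its 2 arrays are separate cultures. The p-values therefore measure only the spread between these arrays. The titles of the null and α3 arrays carry a re-analysis mark that those of the α9 and α3α9 arrays lack. The line with both subunits and the line with neither therefore lie in different sets of arrays, and line and array set cannot be told apart in that comparison. The differences of the α3α9 line from the α9 line lie within the unmarked set, and since a joint change is the sum of that difference and the change of the α9 line from null, both parts are given for the main groups of genes.

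Integrins are receptors for extracellular matrix made of an α and a β subunit. The α3β1 integrin is an adhesion receptor of basal keratinocytes that binds laminins of the epidermal basement membrane, laminin-332 among them. The α9β1 integrin binds, among others, tenascin-C, osteopontin and the EIIIA segment of fibronectin, and is expressed in keratinocytes of healing wounds. Both signal through focal adhesion kinases and the actin cytoskeleton.

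Values are deposited intensities of the authors, scaled here so that every array had the same median of 102.5, and they have no unit. Before scaling the medians ran from 82.75 to 126.7, both on α3α9 arrays. Changes are log2 differences of the scaled intensity + 16, α3α9 line minus null line unless another pair is named, given ± SE with p from limma adjusted over all clusters, and a change passed at an adjusted p of at most 0.05. The added 16 understates the change of dim transcripts. After scaling, the arrays of a line differed with a root mean square SD of 0.28 on the log2 scale in the α3α9 line, and of 0.22 in each of the other lines. Krt14, the keratin of basal keratinocytes, gave 13637 and 9031 on the α3α9 arrays, against 12882 and 13108 on the null arrays. Of 9 measured keratinocyte markers none rose and 2 fell, Trp63 (-1.05 ± 0.14, adjusted p = 0.0035) and Sfn (-0.76 ± 0.18, adjusted p = 0.032). The call of Sfn was lost without any 1 array other than α3α9 replicate 1. The summed level of the list was 59125 and 43179 on the α3α9 arrays, against 57054 and 60199 on the null arrays. None of 12 fibroblast, 8 melanocyte and 11 leukocyte markers passed, and their summed levels on the α3α9 arrays, 1105 and 923.4, 424 and 464, and 1264 and 1123, stood against 1092 and 1074, 436 and 461, and 924 and 1084 on the null arrays. Without α3α9 replicate 2, 1 leukocyte marker rose. Of 10 endothelial markers Flt1 (1.36) and Egfl7 (1.15) rose, and the summed level of the list was 1154 and 1004 on the α3α9 arrays, against 618 and 651 on the null arrays. Pecam1, one of the 8 endothelial markers that did not pass, gave 46.95 and 47.8 on the α3α9 arrays, against 51.99 and 57.4 on the null arrays (-0.16 ± 0.12, adjusted p = 0.43). No marker of these lists was at 0 on any array, and the part of these levels in the results was not tested.

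The targeted subunits are human and the probes mouse. Itga3, the mouse α3 gene, gave 1015 and 1099 in the α3α9 line, 1232 and 1242 in the α3 line, 983 and 818 in the α9 line and 1088 and 1015 in the null line. Itga9 gave 66.5 and 63.5 in the α3α9 line, 46.6 and 41.03 in the α3 line, 55.97 and 65.4 in the α9 line and 51.2 and 57.3 in the null line. Neither passed the test in the α3α9 line, with changes of 0.01 ± 0.13 (adjusted p = 0.98) and 0.21 ± 0.13 (adjusted p = 0.33), and these signals do not check the labels, since mouse probes need not bind human transcripts and a null allele can leave probed parts. Itgb1, the shared β1 subunit, gave 5901 and 4873 in the α3α9 line, 5591 and 5648 in the α3 line, 6803 and 8082 in the α9 line and 8083 and 8174 in the null line. Its change from null was -0.60 ± 0.14 (adjusted p = 0.032). That change did not pass without α3α9 replicate 2, either α3 array or either null array, nor on the unscaled intensities (adjusted p = 0.222). The difference from the α3 line, -0.07 ± 0.14 (adjusted p = 0.79), did not pass.

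In the α3α9 line 3633 of 23332 clusters passed (15.6%), 2261 higher (9.69%) and 1372 lower (5.88%), over a median of all clusters of 0.02. On the same scale 18% of clusters passed for the α3α9 line against the α3 line (12.3% higher, 5.7% lower) and 7.95% for the α3α9 line against the α9 line (5.39% higher, 2.56% lower). For the single lines 5.82% passed for α3 against null (2.79% higher, 3.03% lower) and 13.3% for α9 against null (7.14% higher, 6.18% lower). Of these 5 pairs the 3 that cross the array sets had the highest shares. Without α3α9 replicate 1 the count was 2177, and without null replicates 1 and 2 it was 1464 and 1630. Without scaling 1064 clusters were higher and 319 lower.

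**Figure D1:**
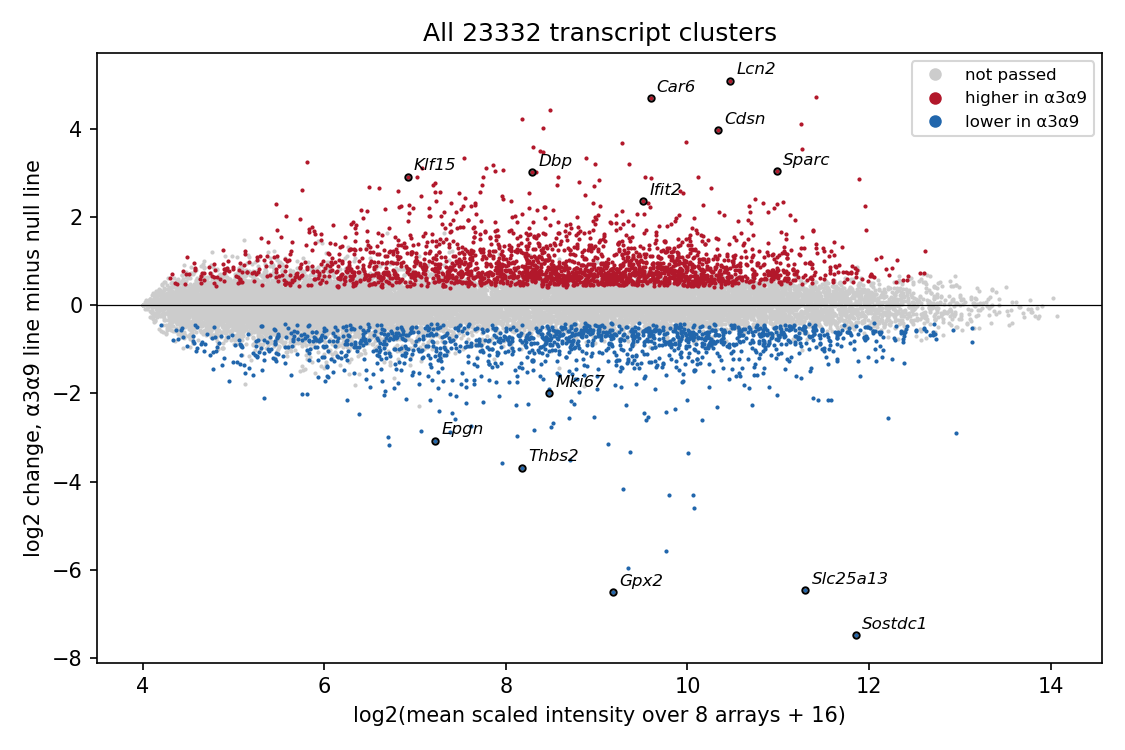
Each point is 1 of 23332 transcript clusters, with the log2 of its mean scaled intensity over 8 arrays + 16 on the horizontal axis and its log2 change, α3α9 line minus null line, on the vertical axis. Red clusters (2261) were higher and blue clusters (1372) lower in the α3α9 line, and the named genes lie at the edges, from Lcn2 at 5.08 to Sostdc1 at -7.47.

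Among the largest rises were secreted and cell surface proteins. Lcn2, an iron-sequestering antimicrobial protein, had the highest change, with 2832 and 4032 in the α3α9 line, 1951 and 1623 in the α3 line, 263 and 340.3 in the α9 line and 75.3 and 93.8 in the null line. Its change in the α3α9 line was 5.08 ± 0.22 (adjusted p = 5.7e-05), and it stood above the α3 line (0.92 ± 0.22, adjusted p = 0.028) and the α9 line (3.43 ± 0.22, adjusted p = 3.2e-04) as well. Every line with a human subunit lay above the null line, and the α3α9 line highest. Tnfrsf26, a receptor of the TNF family, gave 6018 and 4768 in the α3α9 line, 4345 and 3868 in the α3 line, 1194 and 1097 in the α9 line and 198 and 179.9 in the null line (4.71 ± 0.15, adjusted p = 1.6e-05). Its difference from the α3 line, 0.39 ± 0.15 (adjusted p = 0.12), did not pass. It has close relatives that may share probes.

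Several large rises were near the level of the α3 line. Gatm, an enzyme of creatine synthesis, gave 1254 and 1086 in the α3α9 line, 1284 and 971 in the α3 line, 36.8 and 34.6 in the α9 line and 69.5 and 86.4 in the null line, a change of 3.66 ± 0.17 (adjusted p = 6.4e-05) that differed from the α3 line by 0.06 ± 0.17 (adjusted p = 0.84). Cd81, a tetraspanin of the plasma membrane that associates with integrins, gave 5572 and 4019 in the α3α9 line, 3888 and 3715 in the α3 line, 789 and 755 in the α9 line and 354 and 435 in the null line (3.54 ± 0.18, adjusted p = 7.8e-05). Sparc, a matricellular protein, gave 3868 and 2850.2 in the α3α9 line, 3884 and 3549.5 in the α3 line, 574 and 591 in the α9 line and 379 and 403 in the null line (3.04 ± 0.16, adjusted p = 9.0e-05) and differed from the α3 line by -0.16 ± 0.16 (adjusted p = 0.54). For these genes the 2 lines with α3 were high and the 2 without it low, with no overlap. Over all clusters the α3α9 and null arrays did not overlap in 55.7%, a looser condition than this separation of all 4 lines. The share of clusters with the stricter separation was not counted. Gatm and Cd81 were chosen partly because their α3α9 and null arrays did not overlap. For these genes the difference between the null and α3 lines lies within the marked set. That between the α9 and α3α9 lines lies within the unmarked set.

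Susd4, a complement regulator, gave 989 and 857 in the α3α9 line, 389 and 397 in the α3 line, 26.3 and 30.3 in the α9 line and 25.2 and 30.4 in the null line (4.42 ± 0.13, adjusted p = 1.1e-05). Kcnj15, an inwardly rectifying potassium channel, gave 799 and 661 in the α3α9 line, 223 and 254 in the α3 line, 107 and 93.8 in the α9 line and 22.5 and 25.2 in the null line (4.22 ± 0.14, adjusted p = 2.1e-05). In the α3α9 line both genes were above either single line. Ncam1, a homophilic adhesion molecule, gave 2342 and 1950.5 in the α3α9 line, 635 and 692 in the α3 line, 870.5 and 1148 in the α9 line and 142 and 162 in the null line (3.68 ± 0.17, adjusted p = 6.4e-05). Edn2, an endothelin peptide, gave 551 and 841 in the α3α9 line, 119 and 94.6 in the α3 line, 306 and 527 in the α9 line and 54.9 and 37.5 in the null line (3.50 ± 0.30, adjusted p = 6.1e-04). Edn2 did not differ past the test from the α9 line (0.74 ± 0.30, adjusted p = 0.21).

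The largest fall was that of Sostdc1, a secreted antagonist of BMP and Wnt signals. It gave 61.4 and 62.4 in the α3α9 line, 112 and 148 in the α3 line, 711 and 653 in the α9 line and 13030 and 14643 in the null line, a change of -7.47 ± 0.15 (adjusted p = 4.4e-06). The α3α9 line was lowest, followed by the α3 and α9 lines, with the null line highest, and the difference of the α3α9 line from the α3 line was -0.90 ± 0.15 (adjusted p = 0.0095). The single changes were -6.58 with α3 and -4.31 with α9.

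Gpx2, a glutathione peroxidase of epithelia, gave 0.0954 and 11.5 in the α3α9 line, 267 and 266 in the α3 line, 94.8 and 88.9 in the α9 line and 1952 and 1836 in the null line (-6.50 ± 0.23, adjusted p = 2.6e-05). The α3α9 arrays lay under 16, where the added constant shrinks the change. Slc25a13, a mitochondrial aspartate-glutamate carrier, gave 56.1 and 47.7 in the α3α9 line, 46.6 and 42.2 in the α3 line, 4349 and 3537 in the α9 line and 5568 and 6388 in the null line (-6.46 ± 0.15, adjusted p = 6.1e-06). Akip1, which binds protein kinase A, gave 0.4005 and 3.998 in the α3α9 line, 1.27 and 0.858 in the α3 line, 1324 and 1539.8 in the α9 line and 984 and 1231 in the null line (-5.95 ± 0.16, adjusted p = 1.0e-05). Pi15, a secreted protein of the CAP family, gave 15.01 and 9.93 in the α3α9 line, 11.8 and 12.1 in the α3 line, 2226 and 1867 in the α9 line and 1257 and 1423 in the null line (-5.58 ± 0.15, adjusted p = 1.0e-05). In Slc25a13, Akip1, Pi15, Pacs1 (-4.59), the sugar transporter Slc50a1 (-4.31) and Rcbtb2 (-3.17) the α3α9 line did not differ past the test from the α3 line, the widest difference being -0.40 ± 0.22 (adjusted p = 0.26) for Slc50a1. All 6 were high in the α9 line.

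Thbs2, an antiangiogenic matricellular protein, gave 45.3 and 34.4 in the α3α9 line, 83.9 and 88.03 in the α3 line, 346 and 191 in the α9 line and 637 and 764 in the null line (-3.68 ± 0.26, adjusted p = 2.4e-04). Emp3, a membrane protein, gave 56.8 and 36.2 in the α3α9 line, 206 and 222 in the α3 line, 636 and 667 in the α9 line and 599 and 786 in the null line (-3.51 ± 0.19, adjusted p = 1.0e-04). Pclaf, a PCNA-binding factor of DNA replication, gave 107 and 126 in the α3α9 line, 762 and 709 in the α3 line, 463 and 371 in the α9 line and 1349 and 1269 in the null line (-3.33 ± 0.15, adjusted p = 6.4e-05). Emp3 and Pclaf were lowest in the α3α9 line of all lines. Mrto4, a ribosome assembly factor, gave 199 and 201 in the α3α9 line, 1583 and 1288 in the α3 line, 204 and 236 in the α9 line and 2458 and 1927 in the null line (-3.34 ± 0.17, adjusted p = 7.8e-05), low in the 2 lines of the unmarked set and high in those of the marked set.

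A change was counted as beyond both single lines where the α3α9 line passed against the null, the α3 and the α9 line in the same direction. The tests against the null and α3 lines cross the array sets, so in them line and array set cannot be told apart. Only the test against the α9 line lies within the unmarked set. The rule held for 471 of 23332 clusters (2.02%), 360 higher (1.54%) and 111 lower (0.476%), and for 318 and 91 genes with a symbol. By the interaction term of the same fit, the joint change differed from the sum of the single changes in 0.596% of clusters, above the sum in 0.283% and below it in 0.313%. Beyond both single lines, the unscaled intensities gave 49 clusters higher and 26 lower, and quantile normalization 326 and 218. The interaction term was not refitted under these alternatives. The count beyond both single lines moved with single arrays. It was 575 (333 higher and 242 lower) without α3α9 replicate 2, 201 without α3α9 replicate 1, 139 and 177 without α3 replicates 1 and 2, 256 and 184 without α9 replicates 1 and 2, and 286 and 294 without null replicates 1 and 2.

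Car6, a secreted carbonic anhydrase, led this group. It gave 2595 and 2886 in the α3α9 line, 86.5 and 88.4 in the α3 line, 91.98 and 117 in the α9 line and 82.8 and 100.3 in the null line. All arrays but those of the α3α9 line lay between 82.8 and 117, and the change from null was 4.68 ± 0.15 (adjusted p = 1.6e-05), with 4.73 against the α3 line and 4.52 against the α9 line. Klf15, a transcription factor known as a target of the glucocorticoid receptor, gave 318 and 349.7 in the α3α9 line, 27.4 and 23.1 in the α3 line, 27.1 and 32.8 in the α9 line and 33.6 and 27.7 in the null line (2.91 ± 0.14, adjusted p = 6.4e-05), again with the 3 other lines at one low level. Lgals7, the galectin of stratified epithelia, gave 7788 and 5889 in the α3α9 line, 1222 and 980.5 in the α3 line, 1279.9 and 1449 in the α9 line and 341 and 420.5 in the null line (4.10 ± 0.19, adjusted p = 6.4e-05). Here each single line stood above null, by 1.49 with α3 and 1.80 with α9, and the α3α9 line above each by 2.61 and 2.30.

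Tgfbr3, the TGF-β co-receptor betaglycan, gave 754 and 663 in the α3α9 line, 192 and 218 in the α3 line, 236 and 239 in the α9 line and 52.3 and 37.6 in the null line (3.58 ± 0.15, adjusted p = 5.7e-05). Prss27, a serine protease of squamous epithelia, gave 620.2 and 432 in the α3α9 line, 140.2 and 155 in the α3 line, 142 and 172 in the α9 line and 52.4 and 46.00 in the null line (3.04 ± 0.19, adjusted p = 1.6e-04). Both followed the stepwise pattern of Lgals7. Acox2, a peroxisomal oxidase of branched fatty acids and bile acid intermediates, gave 551 and 471 in the α3α9 line, 85.8 and 89.8 in the α3 line, 147 and 136 in the α9 line and 54.6 and 55.05 in the null line (2.89 ± 0.12, adjusted p = 5.7e-05). Tns1, which links integrin tails to actin, gave 297 and 238 in the α3α9 line, 79.8 and 77.4 in the α3 line, 49.9 and 42.8 in the α9 line and 44.96 and 45.2 in the null line (2.21 ± 0.14, adjusted p = 1.6e-04). Limch1, a regulator of non-muscle myosin, gave 203 and 194 in the α3α9 line, 57.3 and 60.5 in the α3 line, 18.9 and 22.5 in the α9 line and 19.9 and 15.4 in the null line (2.68 ± 0.12, adjusted p = 6.4e-05). Both were near the null level with α9 alone.

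Svop, a vesicle protein of the transporter family (2.53 ± 0.12, adjusted p = 7.7e-05), the glycosyltransferase gene B4galnt2 (2.03 ± 0.13, adjusted p = 1.8e-04) and Psd2, an exchange factor for ARF6 (2.21 ± 0.28, adjusted p = 0.0028), completed the 12 rises. Psd2 was the least even of them, with 217 and 444 on the α3α9 arrays. The smaller of each gene's differences from the single lines ran from 4.52 for Car6 to 1.51 for Tgfbr3.

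Among the 12 falls beyond both single lines were 4 small proline-rich proteins, precursors of the cornified envelope that keratinocytes build as they differentiate. Sprr2h gave 62.1 and 71.8 in the α3α9 line, 468 and 543 in the α3 line, 306 and 317 in the α9 line and 507 and 519 in the null line (-2.68 ± 0.13, adjusted p = 6.6e-05). Sprr1b gave 416 and 422 in the α3α9 line, 1287 and 1371 in the α3 line, 1379.6 and 1492 in the α9 line and 1427 and 1694 in the null line (-1.85 ± 0.13, adjusted p = 2.4e-04). Sprr2d (-1.58 ± 0.16, adjusted p = 0.0011) and Sprr2e (-2.23 ± 0.21, adjusted p = 8.7e-04) fell too. In all 4 the α3α9 arrays lay below all other arrays, and the family's similar sequences may share probes. Padi3, a peptidylarginine deiminase of hair follicle and epidermis, gave 168 and 93.8 in the α3α9 line, 353 and 366 in the α3 line, 549.7 and 489 in the α9 line and 627 and 679 in the null line (-2.23 ± 0.23, adjusted p = 0.0012).

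Tslp, an epithelial cytokine of type 2 inflammation, gave 11.5 and 7.18 in the α3α9 line, 66.9 and 69.7 in the α3 line, 372 and 299.7 in the α9 line and 23.1 and 41.5 in the null line. Its fall against the null line, -0.91 ± 0.21 (adjusted p = 0.026), was lost without either α3α9 array or null replicate 2, and it stood beside a difference of -1.74 ± 0.21 (adjusted p = 0.0035) from the α3 line and of -3.79 ± 0.21 (adjusted p = 1.8e-04) from the α9 line. The α9 line was above null by 2.88 ± 0.21 (adjusted p = 9.3e-04). Il5ra, listed as the interleukin-5 receptor α chain, gave 43.97 and 53.8 in the α3α9 line, 532 and 415 in the α3 line, 150.3 and 174 in the α9 line and 199 and 203 in the null line (-1.74 ± 0.16, adjusted p = 7.3e-04), highest in the α3 line. Bcat1, the cytosolic branched-chain aminotransferase, gave 102 and 89.3 in the α3α9 line, 303 and 315 in the α3 line, 268 and 297 in the α9 line and 338 and 381 in the null line (-1.75 ± 0.13, adjusted p = 3.0e-04). Upp1, uridine phosphorylase, gave 311 and 257 in the α3α9 line, 1192 and 1044 in the α3 line, 790.3 and 672 in the α9 line and 1357 and 1676 in the null line (-2.35 ± 0.17, adjusted p = 2.7e-04). Gpx2, Emp3 and Pclaf, described among the largest falls, belonged to this group as well.

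**Figure D2:**
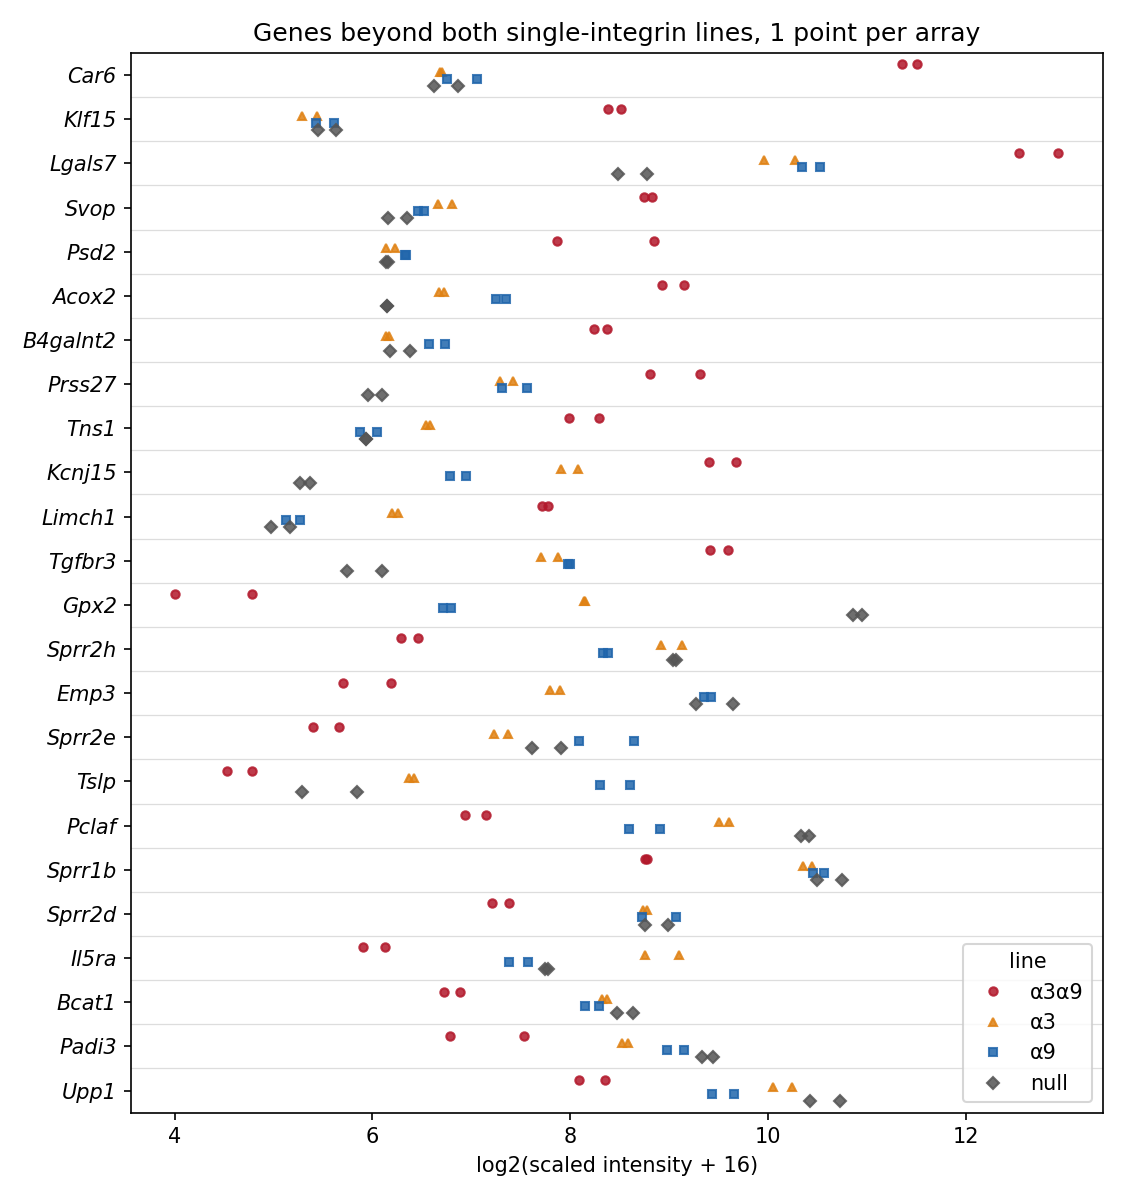
Scaled intensity + 16 on a log2 axis for the 12 rises (upper rows, Car6 to Tgfbr3) and 12 falls (lower rows, Gpx2 to Upp1) beyond both single lines, 1 point per array, with circles for the α3α9 line, triangles for α3, squares for α9 and diamonds for null. In every row the 2 circles lie to one side of all 6 other points, while the order of the other lines differs between genes.

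Genes of DNA replication and mitosis were lower in the α3α9 line. Of 39 measured cell cycle genes 30 fell and 1 rose, against 5.88% and 9.69% of all clusters, and the list median was -1.01 against 0.02 over all clusters. Mki67, a marker of proliferating cells, gave 147 and 115 in the α3α9 line, 280.0 and 334 in the α3 line, 335 and 363 in the α9 line and 552 and 591 in the null line (-2.003 ± 0.15, adjusted p = 3.7e-04). Top2a, the topoisomerase that untangles replicated chromosomes, gave 1206 and 1118 in the α3α9 line, 2218 and 2378 in the α3 line, 2196 and 2891 in the α9 line and 3562 and 3812 in the null line (-1.65 ± 0.15, adjusted p = 8.2e-04). Cenpa, the histone variant of centromeres, gave 822 and 686 in the α3α9 line, 2778 and 2527 in the α3 line, 1533 and 1236 in the α9 line and 2695 and 2822 in the null line (-1.85 ± 0.15, adjusted p = 5.2e-04). Cdc20, an activator of the anaphase-promoting complex, gave 575 and 421 in the α3α9 line, 977 and 1007 in the α3 line, 903 and 849.5 in the α9 line and 1245 and 1561 in the null line (-1.47 ± 0.18, adjusted p = 0.0024). In Mki67, Top2a and Cdc20 the lines followed one order, the α3α9 arrays lowest, the single lines between and the null arrays highest. For Cenpa the α3 and null arrays overlapped.

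The joint change had a part within the unmarked set and a part that crosses the sets. Against the α9 line, within the unmarked set, 18 of 39 members were lower and none higher (2.56% and 5.39% of all clusters), with a median of -0.52. In the α9 line against null 17 were lower (6.18% of all clusters), with a median of -0.51, and in the α3 line 4 were lower (3.03%), with a median of -0.30. The 3 comparisons with the null line share its arrays. Beyond both single lines were 15 of the 39, among them the mitotic kinase gene Cdk1 (-1.42), the kinesins Kif11 (-1.43) and Kif20a (-1.43), Aurka (-1.33), Birc5 (-1.22) and cyclin A2, Ccna2 (-1.05). Of the MCM helicase subunits Mcm3 (-0.87), Mcm5 (-0.94) and Mcm7 (-0.75) fell, and Mcm2, Mcm4 and Mcm6 did not pass, with 0.16, -0.40 and -0.18. The member that rose was E2f1, a transcription factor of S phase genes (0.73 ± 0.14, adjusted p = 0.015), and it did not pass without α3α9 replicate 1 or either null array. Ccnd1, cyclin D1, gave 0.38 ± 0.18 (adjusted p = 0.21). The count of falls lay between 22 and 30 when single arrays were left out.

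Promoters of mitotic genes are known for CCAAT boxes, bound by NF-Y, and for the cell cycle genes homology region (CHR), bound by the MuvB complexes that repress these genes in resting cells. Windows of RefSeq (build GRCm38.p6) ran from 250 bases before to 50 after a gene's start. They were searched on both strands for CCAAT and for TTTGAA, the CHR letters. Of the 39 members 30 had a window. CCAAT was in 22 of the 30, against 37.9% of 27025 windows of the genome, and TTTGAA in 13 of 30, against 18.1%. Of the 25 members with a window that fell, 19 held CCAAT and 12 TTTGAA. The windows of 3 of the named members show how the letters lie, with every match in capitals (ATTGG and TTCAAA are matches on the opposite strand):
Mki67 (chr7:135716330-135716629, minus strand): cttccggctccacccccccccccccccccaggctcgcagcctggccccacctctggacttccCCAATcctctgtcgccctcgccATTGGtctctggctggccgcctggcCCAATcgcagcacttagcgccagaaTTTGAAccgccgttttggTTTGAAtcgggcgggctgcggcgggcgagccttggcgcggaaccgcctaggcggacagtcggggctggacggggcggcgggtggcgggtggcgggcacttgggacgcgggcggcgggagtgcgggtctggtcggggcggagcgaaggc
Cdc20 (chr4:118437294-118437593, minus strand): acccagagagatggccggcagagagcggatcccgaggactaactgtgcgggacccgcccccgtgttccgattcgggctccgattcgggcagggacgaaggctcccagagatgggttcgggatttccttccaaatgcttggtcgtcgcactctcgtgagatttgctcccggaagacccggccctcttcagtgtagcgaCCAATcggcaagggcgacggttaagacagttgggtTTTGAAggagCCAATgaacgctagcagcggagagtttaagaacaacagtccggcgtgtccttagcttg
Top2a (chr11:99024140-99024439, minus strand): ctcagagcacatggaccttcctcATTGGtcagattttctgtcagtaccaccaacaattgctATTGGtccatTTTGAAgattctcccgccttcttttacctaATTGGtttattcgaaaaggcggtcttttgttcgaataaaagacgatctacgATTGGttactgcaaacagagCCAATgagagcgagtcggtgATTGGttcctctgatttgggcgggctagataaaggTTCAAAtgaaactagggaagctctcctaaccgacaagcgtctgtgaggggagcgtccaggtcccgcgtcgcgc
The Mki67 window held 3 CCAAT and 2 TTTGAA matches, that of Cdc20 2 and 1, and that of Top2a 6 and 2. A match describes the letters and does not show binding.

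Several genes known as targets of p53 rose in the α3α9 line. Of 20 measured p53 targets and CDK inhibitors 8 rose and 1 fell, against 9.69% and 5.88% of all clusters (12.56% and 6.59% of genes), with a median of 0.49. Trp53inp1, a p53-induced nuclear and autophagy protein, gave 3065 and 2835 in the α3α9 line, 1553 and 1696 in the α3 line, 1362 and 1207 in the α9 line and 587 and 634 in the null line (2.24 ± 0.13, adjusted p = 1.1e-04). Eda2r, a death receptor of the TNF family, gave 2406 and 2569.7 in the α3α9 line, 1739.8 and 1753 in the α3 line, 1084 and 1008 in the α9 line and 622 and 694 in the null line (1.89 ± 0.12, adjusted p = 1.6e-04). Zmat3, an RNA-binding p53 target, gave 1243 and 1052 in the α3α9 line, 643 and 604 in the α3 line, 757 and 728 in the α9 line and 351 and 369.6 in the null line (1.62 ± 0.13, adjusted p = 4.0e-04). These 3 and Btg2 (1.44), an antiproliferative factor, stood beyond both single lines, each line with a human subunit being above null. Fas, the death receptor, gave 419 and 434 in the α3α9 line, 338 and 296 in the α3 line, 177 and 164 in the α9 line and 92.5 and 97.5 in the null line (1.996 ± 0.12, adjusted p = 1.4e-04), and Mdm2, the ubiquitin ligase of p53, rose by 0.68. Cdkn1a, the p53-induced CDK inhibitor p21, did not pass (0.45 ± 0.16, adjusted p = 0.098), nor did Cdkn2a (0.57 ± 0.22, adjusted p = 0.12). The member that fell was the CDK inhibitor gene Cdkn1c (-0.76 ± 0.17, adjusted p = 0.023), a call lost without any 1 of the α3α9 and null arrays. Within the unmarked set 7 of the 20 were higher and 3 lower in the α3α9 than in the α9 line (5.39% and 2.56% of all clusters), with a median of 0.26. With α3 alone, within the marked set, 5 rose and none fell against null (2.79% and 3.03%), with a median of 0.28. With α9 alone, 6 rose and none fell against null (7.14% and 6.18%), with a median of 0.27. The count of rises was 5 without α3α9 replicate 1 or null replicate 1.

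Some interferon response genes rose in the α3α9 line, some fell and 16 of 36 did not pass. Of the 36 measured members 14 rose and 6 fell, against 9.69% and 5.88% of all clusters, with a median of 0.29. Oas2, an oligoadenylate synthetase of the antiviral response, gave 589.8 and 568 in the α3α9 line, 19.7 and 24.6 in the α3 line, 885 and 656 in the α9 line and 68.3 and 81.03 in the null line (2.72 ± 0.17, adjusted p = 1.6e-04). Ifit2, an inhibitor of viral translation, gave 1379.9 and 1451 in the α3α9 line, 54.6 and 72.2 in the α3 line, 1139 and 1083 in the α9 line and 244 and 287 in the null line (2.35 ± 0.15, adjusted p = 1.7e-04). Irf7, the transcription factor that amplifies type I interferon, gave 4447 and 3394 in the α3α9 line, 468 and 355 in the α3 line, 3289 and 3313 in the α9 line and 675 and 853 in the null line (2.33 ± 0.20, adjusted p = 5.7e-04). Oasl1 gave 1122 and 976 in the α3α9 line, 232 and 193 in the α3 line, 1472 and 1517 in the α9 line and 180.5 and 220.3 in the null line (2.30 ± 0.15, adjusted p = 1.9e-04). In these 4 genes the α3α9 and α9 arrays, which form the unmarked set, were high and the null and α3 arrays low. Against the α9 line they differed by -0.39, 0.34, 0.23 and -0.51, none past the test. Their changes in the α9 line from null, which cross the array sets, were 3.10, 2.005, 2.10 and 2.81.

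In the α3 line none of the 36 rose and 13 fell against null (2.79% and 3.03% of all clusters), with a median of -0.46. In the α9 line 13 rose and 4 fell (7.14% and 6.18%), with a median of 0.20. Within the marked set Oas2 and Ifit2 were lower with α3, with changes of -1.25 ± 0.17 (adjusted p = 0.0092) and -1.83 ± 0.15 (adjusted p = 9.7e-04). Within the unmarked set 3 members were higher and 3 lower with both subunits than with α9 (5.39% and 2.56% of all clusters), with a median of 0.08. The sensors Ddx58 (1.10) and Ifih1 (0.85) and the nucleotide kinase gene Cmpk2 (1.25) were the members beyond both single lines. Those that fell were Gbp2 (-1.001) and Gbp7 (-0.86), guanylate-binding proteins induced by interferon-γ, Irf1 (-0.80), the proteasome subunit gene Psmb10 (-0.80), Tgtp1 (-0.67) and Irgm1 (-0.42). Without α3α9 replicate 1 or either α3 array 3 fell, and without null replicate 2 only 1. On the unscaled intensities 12 rose and none fell. Interferon-γ was in the medium of every line.

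Interferon-stimulated genes carry the interferon-stimulated response element (ISRE), bound by IRF factors. The same windows were searched on both strands for its core, GAAA repeated after any 2 bases. Of 30 members with a window 14 held it, against 3.49% of all 27025 windows. It was in 6 of the 12 that rose and had a window and in 4 of the 6 that fell. The windows of 3 members chosen after their values were seen, Ifit1 (change 2.21) and Rsad2 (2.28), which rose, and Gbp2, which fell, show the core in capitals, in each case on the opposite strand:
Ifit1 (chr19:34640639-34640938, plus strand): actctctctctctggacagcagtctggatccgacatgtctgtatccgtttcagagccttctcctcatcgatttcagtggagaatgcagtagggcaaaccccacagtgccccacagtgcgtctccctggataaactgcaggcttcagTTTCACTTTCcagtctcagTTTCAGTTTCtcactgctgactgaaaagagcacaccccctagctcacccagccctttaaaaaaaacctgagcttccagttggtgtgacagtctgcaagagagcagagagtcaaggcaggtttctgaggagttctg
Rsad2 (chr12:26456403-26456702, minus strand): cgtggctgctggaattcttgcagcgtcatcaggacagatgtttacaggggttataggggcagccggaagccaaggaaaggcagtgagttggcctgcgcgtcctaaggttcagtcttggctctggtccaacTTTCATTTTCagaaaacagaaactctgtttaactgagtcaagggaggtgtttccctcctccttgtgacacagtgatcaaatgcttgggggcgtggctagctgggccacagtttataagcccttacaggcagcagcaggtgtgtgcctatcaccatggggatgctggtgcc
Gbp2 (chr3:142620413-142620712, plus strand): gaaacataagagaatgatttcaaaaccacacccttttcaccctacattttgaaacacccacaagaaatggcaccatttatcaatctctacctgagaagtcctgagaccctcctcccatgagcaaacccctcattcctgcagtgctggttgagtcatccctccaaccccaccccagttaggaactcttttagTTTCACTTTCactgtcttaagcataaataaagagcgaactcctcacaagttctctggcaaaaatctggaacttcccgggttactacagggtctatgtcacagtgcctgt

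Part of the clock genes and of the glucocorticoid-responsive genes rose in the α3α9 line. Of 14 measured clock and PAR-bZIP genes 7 rose and none fell, against 9.69% and 5.88% of all clusters, with a median of 0.52. Dbp, a PAR-bZIP factor of clock output, gave 549 and 355 in the α3α9 line, 36.6 and 40.6 in the α3 line, 699.5 and 616 in the α9 line and 39.9 and 42.2 in the null line (3.01 ± 0.20, adjusted p = 1.9e-04). Tef, its relative, gave 872 and 702 in the α3α9 line, 276 and 329.6 in the α3 line, 906 and 923 in the α9 line and 192 and 210.2 in the null line (1.88 ± 0.15, adjusted p = 4.4e-04). Both were high in the unmarked set and low in the marked set, and did not differ past the test between the α3α9 and α9 lines (-0.55 and -0.22). Bhlhe41, a repressor of the clock loop, gave 884 and 731 in the α3α9 line, 289 and 382 in the α3 line, 438 and 368 in the α9 line and 234 and 263 in the null line (1.63 ± 0.18, adjusted p = 0.0016), and Hlf, the third PAR-bZIP factor, rose by 1.14. These 2 were beyond both single lines, and the call of Hlf was lost without null replicate 1 (adjusted p = 0.0503). Without either α3α9 array or null replicate 2 the count of rises was 4, and without null replicate 1 it was 3. It was also 4 on the unscaled intensities and with the replicate number as a block. In the α9 line against null 7 of the 14 rose and none fell (7.14% and 6.18% of all clusters), with a median of 0.71. Within the unmarked set 2 were higher and 3 lower in the α3α9 than in the α9 line (5.39% and 2.56%), with a median of -0.15. No member passed in the α3 line against null, in the same set of arrays.

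Of 14 measured glucocorticoid-responsive genes 6 rose and 1, Dusp1 (-0.68), fell, against 9.69% and 5.88% of all clusters, with a median of 0.47. In the α9 line against null 7 rose and 1 fell (7.14% and 6.18% of all clusters), with a median of 0.51. Within the unmarked set 2 were higher and 2 lower in the α3α9 than in the α9 line (5.39% and 2.56%), with a median of 0.04. In the α3 line against null none of the 14 passed. Besides Klf15, those that rose in the α3α9 line were Tsc22d3, the anti-inflammatory GILZ, with 3615 and 2808 in the α3α9 line, 1000.4 and 1016 in the α3 line, 3043 and 3073 in the α9 line and 1028 and 976 in the null line (1.65 ± 0.14, adjusted p = 6.1e-04), Fkbp5, a co-chaperone of the receptor, with 2684 and 2231 in the α3α9 line, 797 and 1014 in the α3 line, 1562 and 1559 in the α9 line and 869 and 805 in the null line (1.53 ± 0.16, adjusted p = 0.0012), the kinase gene Sgk1 (1.16), the receptor gene Nr3c1 (0.89) and Hif3a (0.84). In Tsc22d3 and Fkbp5 the α9 arrays lay above the null and α3 arrays too. The fall of Dusp1 was lost without α3α9 replicate 1 or either null array. For Klf15 the α9 line gave only 27.1 and 32.8. Hydrocortisone was in the medium of every line. Of 13 clock windows 4 held the E-box CACGTG of clock factors (7.24% of all windows), and of 13 glucocorticoid windows 1 held ACANNNTGT, the core of the glucocorticoid element (6.9%).

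**Figure D3:**
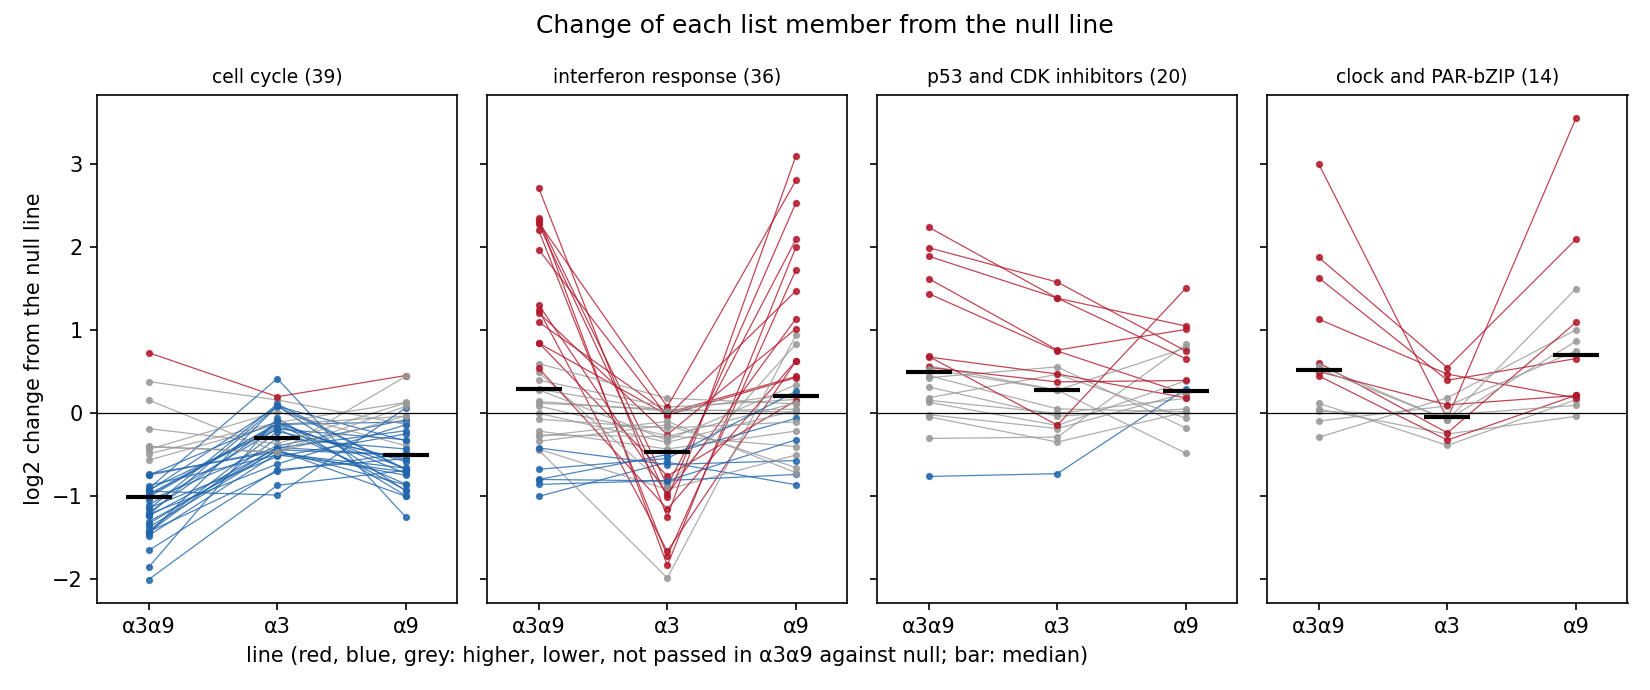
Log2 change from the null line of every measured member of 4 lists, in the α3α9, α3 and α9 lines from left to right, with lines joining 1 gene and bars at the list median; colours give the call in the α3α9 line (red higher, blue lower, grey not passed). Cell cycle medians were -1.01, -0.30 and -0.51, and those of the interferon response 0.29, -0.46 and 0.20; the 3 columns share the null arrays.

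Of 35 measured genes of keratinocyte differentiation 10 fell and 4 rose, against 5.88% and 9.69% of all clusters, with a median of -0.24. Krt16, a keratin of activated epidermis, gave 275 and 349 in the α3α9 line, 692 and 608 in the α3 line, 2241 and 2776 in the α9 line and 1619 and 1602 in the null line (-2.32 ± 0.16, adjusted p = 2.6e-04). Sprr1a gave 224 and 379.5 in the α3α9 line, 277 and 324 in the α3 line, 1384 and 2738 in the α9 line and 1808 and 1918 in the null line (-2.61 ± 0.34, adjusted p = 0.0032), low in the 2 lines with α3. Ivl, involucrin, the scaffold of the cornified envelope, fell (-1.88 ± 0.28, adjusted p = 0.0053), as did Krt10, a suprabasal keratin (-0.40 ± 0.11, adjusted p = 0.047). Those that rose were Cdsn, Ly6d (1.71), periplakin, Ppl (1.19), and the transcription factor gene Grhl1 (0.62). Cdsn, corneodesmosin, an adhesive protein of cornified cells, gave 3473 and 3349 in the α3α9 line, 183 and 247 in the α3 line, 1065 and 1487 in the α9 line and 197 and 209.9 in the null line (3.97 ± 0.20, adjusted p = 7.7e-05), and the α3α9 line was above the α9 line by 1.43 ± 0.20 (adjusted p = 0.0071). Within the unmarked set 12 members were lower and 2 higher in the α3α9 than in the α9 line (2.56% and 5.39% of all clusters), with a median of -0.20. In the α9 line against null 7 rose and 2 fell (7.14% and 6.18%), with a median of 0.12. In the α3 line against null, within the marked set, none rose and 6 fell (2.79% and 3.03%), with a median of -0.23.

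Of 26 desmosomal and junction genes 3 rose and 2 fell, shares near the 9.69% and 5.88% of all clusters and the 12.56% and 6.59% of genes. These shares also stand behind the counts of the lists that follow. Dsc3, a desmosomal cadherin of basal layers, gave 1018 and 1027 in the α3α9 line, 533 and 616 in the α3 line, 5285 and 6699 in the α9 line and 4304 and 4847 in the null line (-2.14 ± 0.15, adjusted p = 2.9e-04), and it stood above the α3 line by 0.82 ± 0.15 (adjusted p = 0.013). Cldn3, a tight junction claudin, gave 1862 and 1451 in the α3α9 line, 2125 and 1932 in the α3 line, 516 and 528 in the α9 line and 315 and 343 in the null line (2.27 ± 0.15, adjusted p = 1.9e-04). Nectin4 rose by 1.27 and the gap junction gene Gja1 fell (-1.21 ± 0.18, adjusted p = 0.0053). Krt19, which marks simple epithelia among the keratins, was the 1 of 5 simple epithelium markers that passed (2.85 ± 0.19, adjusted p = 2.0e-04). It gave 7562 and 6764 in the α3α9 line, 5709 and 6618 in the α3 line, 661 and 836 in the α9 line and 846 and 1138 in the null line. Its difference from the α3 line, 0.22 ± 0.19 (adjusted p = 0.47), did not pass. Of 13 mesenchymal regulators Cdh2, N-cadherin, rose, with 1128 and 1176 in the α3α9 line, 800.4 and 708 in the α3 line, 313 and 362 in the α9 line and 301 and 289.9 in the null line (1.91 ± 0.13, adjusted p = 2.0e-04), as did Twist1 (1.23 ± 0.20, adjusted p = 0.0077). Cdh2 was beyond both single lines, and the call of Twist1 was lost without null replicate 1. S100a4 fell (-0.99 ± 0.24, adjusted p = 0.033), a call lost without any 1 of the α3α9, α3 and null arrays.

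Of 15 basal keratinocyte genes 4 rose and 1, Trp63, the p63 gene that keeps the basal state, fell, with 716 and 580.2 in the α3α9 line, 833 and 849 in the α3 line, 1018 and 958 in the α9 line and 1277 and 1440.3 in the null line. Dst, the hemidesmosomal plakin BPAG1, gave 858 and 890.0 in the α3α9 line, 426 and 445 in the α3 line, 807 and 889 in the α9 line and 477 and 443 in the null line (0.91 ± 0.12, adjusted p = 0.003). Dlk2 (0.77) and Cav1 (0.72) rose with less stable calls, that of Dlk2 being lost without α3α9 replicate 1 or either null array and that of Cav1 without any 1 array other than α3α9 replicate 2. Without α3α9 replicate 1 or either null array 1 of the 15 rose, and 2 did without any 1 of the α3 and α9 arrays.

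Of 40 inflammatory mediators 9 rose and 7 fell, with a median of -0.02. Besides Lcn2 they included Nos2, the inducible nitric oxide synthase, with 1479.5 and 1176 in the α3α9 line, 1434 and 1637 in the α3 line, 549 and 362 in the α9 line and 318 and 369 in the null line (1.90 ± 0.22, adjusted p = 0.0019), where the lines with α3 were high. The T-cell chemokines Ccl5, with 144 and 107 in the α3α9 line, 28.2 and 15.8 in the α3 line, 92.6 and 77.7 in the α9 line and 24.8 and 19.3 in the null line (1.88 ± 0.21, adjusted p = 0.0016), and Cxcl10, with 399 and 304 in the α3α9 line, 70.8 and 64.7 in the α3 line, 332 and 420.4 in the α9 line and 84.2 and 109.9 in the null line (1.70 ± 0.19, adjusted p = 0.0018), were high in the unmarked set. Slpi, an antiprotease of mucosa (1.53), Defb1, a β-defensin (1.57), and Csf1 (1.51) rose too. Ccl20 (-1.20), Cxcl2 (-0.96), Ccl2 (-0.91), Cxcl5 (-0.79) and Il1a (-0.60) were among those that fell, of which 3 did without α3α9 replicate 1, 4 without α3α9 replicate 2 and 1 without null replicate 2 or on the unscaled intensities.

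For Ptgs2, the inducible cyclooxygenase, the single lines lay on opposite sides of null and the α3α9 line between them. Ptgs2 gave 3285 and 3182 in the α3α9 line, 1558 and 1376 in the α3 line, 7903 and 10416 in the α9 line and 3819.5 and 4187 in the null line. Its change was -1.44 ± 0.16 (adjusted p = 0.0036) with α3, 1.18 ± 0.16 (adjusted p = 0.0056) with α9 and -0.30 ± 0.16 (adjusted p = 0.25) with both, the last not past the test. The α3α9 line was above the α3 line by 1.13 ± 0.16 (adjusted p = 0.0058) and its difference from the α9 line was -1.48 ± 0.16 (adjusted p = 0.0026). Of 5 measured genes linked to α3β1 by previous studies of keratinocyte lines, Sparc and Fbln2 rose and none fell. That list was chosen on related lines and is not independent evidence of a direction. Fbln2, a basement membrane fibulin, gave 3724 and 2498 in the α3α9 line, 2122 and 2249.7 in the α3 line, 1024 and 835 in the α9 line and 568 and 566 in the null line (2.40 ± 0.20, adjusted p = 5.3e-04) and differed from the α3 line by 0.48 ± 0.20 (adjusted p = 0.14). Mmp9 gave -0.04 ± 0.17 (adjusted p = 0.91) and Bmp1 0.11 ± 0.15 (adjusted p = 0.67).

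Of 30 basement membrane and matrix genes 7 rose and 1, Thbs2, fell, with a median of -0.01. Col4a2, a chain of type IV collagen, gave 1649.8 and 1152 in the α3α9 line, 731 and 856 in the α3 line, 726 and 531 in the α9 line and 589 and 593 in the null line (1.20 ± 0.21, adjusted p = 0.011) and was beyond both single lines, and its partner chain Col4a1 rose by 0.94. The call of Col4a2 was lost without either null array. Agrn (0.83), the laminin chain gene Lamc1 (0.67) and Npnt, the α8β1 ligand nephronectin (0.95), rose as well. The laminin-332 chain gene Lamb3 gave -0.07 ± 0.19 (adjusted p = 0.85), and Tnc, tenascin-C, -0.34 ± 0.11 (adjusted p = 0.077). The list had 4 rises without α3α9 replicate 1 and 3 without either null array.

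Of 17 integrin subunits 5 rose and 1, Itgb1, fell. Itgb7, a subunit best known from lymphocytes, gave 2043 and 1491 in the α3α9 line, 439 and 571 in the α3 line, 732 and 863 in the α9 line and 444 and 520.0 in the null line (1.83 ± 0.20, adjusted p = 0.0017). Itgb5, a partner of αv, gave 1743 and 1371 in the α3α9 line, 696 and 752 in the α3 line, 1376 and 1310.0 in the α9 line and 593 and 676 in the null line (1.27 ± 0.15, adjusted p = 0.0022). Itgav gave 2849 and 2489 in the α3α9 line, 1977 and 1966 in the α3 line, 1896 and 1781 in the α9 line and 1500.0 and 1625 in the null line (0.76 ± 0.12, adjusted p = 0.0072). Itga2b (1.18) and Itgb2 (0.42) rose too. Itgb7 and Itga2b were beyond both single lines. The laminin receptor subunits Itga6 and Itgb4 gave -0.42 ± 0.14 (adjusted p = 0.093) and -0.06 ± 0.16 (adjusted p = 0.84). Without null replicate 1, 3 subunits rose and the call of Itgav was lost (adjusted p = 0.0589).

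Among extracellular proteases and their inhibitors 10 of 34 rose and 1, Serpinb5, the serpin maspin, fell (-0.71), with a median of 0.18. Mmp13, a collagenase, gave 137 and 90.7 in the α3α9 line, 122 and 101 in the α3 line, 94.2 and 66.3 in the α9 line and 23.3 and 30.02 in the null line (1.59 ± 0.22, adjusted p = 0.0043), above null in every line with a human subunit. Adam9, a membrane sheddase, gave 4883 and 3904 in the α3α9 line, 2668 and 2748 in the α3 line, 2461 and 2717 in the α9 line and 1747 and 1969 in the null line (1.23 ± 0.15, adjusted p = 0.0023). Mmp11, stromelysin-3, gave 129 and 134 in the α3α9 line, 84.2 and 81.3 in the α3 line, 61.4 and 48.7 in the α9 line and 51.99 and 48.8 in the null line (1.15 ± 0.13, adjusted p = 0.0017), both beyond the single lines. Spint1, an inhibitor of matriptase, rose by 0.94 ± 0.15 (adjusted p = 0.0073), lost without null replicate 1. The rises numbered 4 without α3α9 replicate 1, 6 without either α3 array or null replicate 2, and 3 without null replicate 1. The call of Serpinb5 was lost without either null array.

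Of 19 YAP and TEAD targets 8 rose and 2 fell, against 9.69% and 5.88% of all clusters, with a median of 0.51. Amotl2, an inhibitor of YAP, gave 819 and 682 in the α3α9 line, 373 and 384 in the α3 line, 717 and 752 in the α9 line and 277 and 248 in the null line (1.46 ± 0.13, adjusted p = 7.3e-04). F3, tissue factor, gave 2002 and 1948 in the α3α9 line, 359.9 and 319.7 in the α3 line, 2268 and 3980.3 in the α9 line and 723 and 795 in the null line (1.36 ± 0.24, adjusted p = 0.011). The receptor kinase gene Axl gave 7206 and 5351 in the α3α9 line, 3595 and 3426 in the α3 line, 4615 and 5676 in the α9 line and 3138 and 2703 in the null line (1.09 ± 0.18, adjusted p = 0.0085). Ptpn14, a phosphatase that binds YAP, gave 1059.7 and 887 in the α3α9 line, 593 and 539 in the α3 line, 533 and 552 in the α9 line and 361 and 328 in the null line (1.45 ± 0.13, adjusted p = 7.9e-04), the member beyond both single lines. With α3 alone, within the marked set, 2 rose and 2 fell against null (2.79% and 3.03%). With α9 alone, 11 rose and none fell against null (7.14% and 6.18%). Within the unmarked set 2 were higher and 4 lower with both subunits than with α9 (5.39% and 2.56%). The α3α9 line had 4 rises without α3α9 replicate 1 or null replicate 2, and without null replicate 1 it had 5. Of Rbms3 (-0.84) and Nt5e (-0.67), which fell, only 1 was called without α3α9 replicate 2 or any 1 of the α9 and null arrays, and neither on the unscaled intensities. The call of F3 was lost without α3α9 replicate 1 or null replicate 1 and that of Axl without null replicate 2.

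Of 24 angiogenic signals and inhibitors 5 rose and 1, Thbs2, fell. Vegfc, a lymphangiogenic factor, gave 385 and 314 in the α3α9 line, 354 and 326 in the α3 line, 242 and 142 in the α9 line and 53.4 and 46.01 in the null line (2.47 ± 0.23, adjusted p = 8.3e-04). Edn1, endothelin-1, gave 1347 and 1511 in the α3α9 line, 878 and 866 in the α3 line, 1022 and 1017 in the α9 line and 347 and 362 in the null line (1.96 ± 0.12, adjusted p = 1.3e-04). Edn1 was beyond both single lines. Vegfd gave 1638 and 1559 in the α3α9 line, 478 and 419.9 in the α3 line, 1296 and 1300.5 in the α9 line and 869 and 878 in the null line (0.86 ± 0.12, adjusted p = 0.0037), lowest in the α3 line. The count of rises was 3 without α3α9 replicate 1 or null replicate 1. Of 14 genes of the EGF receptor system Epgn, the ligand epigen, fell beyond both single lines, with 19.7 and 15.7 in the α3α9 line, 39.2 and 37.5 in the α3 line, 217 and 203 in the α9 line and 261 and 272 in the null line (-3.07 ± 0.12, adjusted p = 3.9e-05). Egfr gave 1246 and 1117 in the α3α9 line, 571 and 558 in the α3 line, 1185 and 1491 in the α9 line and 593 and 621 in the null line (0.94 ± 0.14, adjusted p = 0.0058), high in the unmarked set. Tgfa rose (0.79 ± 0.13, adjusted p = 0.0079) and Nrg1 fell (-0.61 ± 0.13, adjusted p = 0.018). The call of Tgfa was lost without null replicate 2 and that of Nrg1 without α3α9 replicate 2 or either null array.

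Of 29 genes of TGF-β and BMP signalling 8 fell and 2 rose, against 5.88% and 9.69% of all clusters, with a median of -0.19. Tgfbi, a TGF-β-induced matrix protein, gave 111 and 72.9 in the α3α9 line, 110.1 and 122 in the α3 line, 533 and 523 in the α9 line and 282 and 340.5 in the null line (-1.62 ± 0.19, adjusted p = 0.002). Id1, a BMP target that blocks differentiation factors, gave 227 and 239.6 in the α3α9 line, 727 and 637 in the α3 line, 224 and 167 in the α9 line and 531 and 626 in the null line (-1.25 ± 0.17, adjusted p = 0.0036), low in the unmarked set, and its relatives Id3 (-0.80) and Id4 (-1.14) fell as well. Besides Tgfbr3, Nog, the BMP antagonist noggin, rose by 1.02 ± 0.22 (adjusted p = 0.022), and without null replicate 1 the list had 1 rise. The falls numbered 5 without α3α9 replicate 2, either α3 array or null replicate 1, and 4 without null replicate 2. On the unscaled intensities 2 fell, and the fall of Id1 did not pass (adjusted p = 0.0531).

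Of 24 genes of ERK output and feedback 2 rose and 4 fell. Dusp6, an ERK phosphatase, gave 1456 and 1085 in the α3α9 line, 2031 and 1821 in the α3 line, 512 and 256 in the α9 line and 2934 and 3478 in the null line (-1.33 ± 0.30, adjusted p = 0.026), lowest in the α9 line, so that the α3α9 line was above the α9 line by 1.75 ± 0.30 (adjusted p = 0.017). Fos, an immediate early gene of ERK signalling, gave 353 and 301 in the α3α9 line, 247 and 229 in the α3 line, 77.6 and 87.9 in the α9 line and 107 and 153 in the null line (1.25 ± 0.17, adjusted p = 0.0043). Phlda1 fell (-1.17 ± 0.24, adjusted p = 0.019) and Dusp4, a nuclear MAP kinase phosphatase, rose (0.78 ± 0.15, adjusted p = 0.014). The call of Phlda1 was lost without either α3α9 array or null replicate 2, and that of Dusp4 without α3α9 replicate 1 or either null array. The call of Dusp6 was lost without any 1 of the α3α9 and null arrays. No ERK list member fell without α3α9 replicate 1, without null replicate 2 or on the unscaled intensities, 1 fell without null replicate 1 and 2 without α3α9 replicate 2, and 1 rose without α3α9 replicate 1 or either null array. Of 22 hemidesmosome and focal adhesion genes 4 rose, Tns1, Dst, Pdlim7 (0.76 ± 0.16, adjusted p = 0.019) and Fermt2, kindlin-2 (0.56 ± 0.14, adjusted p = 0.033), and 2 did without α3α9 replicate 1 or either null array. The calls of Pdlim7 and Fermt2 were lost without any 1 of the α3α9 and null arrays, and that of Fermt2 without either α3 array too. Ilk, the integrin-linked kinase, fell (-0.48 ± 0.12, adjusted p = 0.032), a call lost without any 1 of the 8 arrays.

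Most metabolic and stress genes did not pass. Of 17 NRF2 targets 3 fell, Gpx2, Nqo1, a quinone reductase, with 725 and 607 in the α3α9 line, 943 and 786 in the α3 line, 1686 and 1301 in the α9 line and 1681 and 2132 in the null line (-1.49 ± 0.19, adjusted p = 0.0031), and Gsta4 (-0.83 ± 0.19, adjusted p = 0.026), a call lost without any 1 of the α3α9 and null arrays. Of 23 glycolysis and hypoxia genes 2 rose and 3 fell. Pfkfb3, an activator of glycolysis, gave 1722 and 1146 in the α3α9 line, 269.8 and 286 in the α3 line, 1887 and 1863 in the α9 line and 225 and 214 in the null line (2.59 ± 0.19, adjusted p = 2.9e-04), high in the unmarked set, while Egln3 (-1.47 ± 0.14, adjusted p = 9.6e-04), P4ha1 (-0.94 ± 0.14, adjusted p = 0.0056) and Bnip3 (-0.77 ± 0.18, adjusted p = 0.032) fell, Bnip3 with a call lost without any 1 of the α3α9, α3 and null arrays. Ndrg1 rose by 0.74, and without α3α9 replicate 1 or any 1 of the α3 and null arrays the list had 1 rise. Of 24 genes of the stress and unfolded protein response 4 rose and 3 fell, led by Ppp1r15a, GADD34, with 1686 and 1531 in the α3α9 line, 699.5 and 656 in the α3 line, 1318 and 1986 in the α9 line and 474 and 585 in the null line (1.58 ± 0.21, adjusted p = 0.0032), and Ddit3, CHOP, with 1318 and 1279.5 in the α3α9 line, 339 and 388 in the α3 line, 1013 and 1144 in the α9 line and 475 and 628 in the null line (1.23 ± 0.16, adjusted p = 0.0033). Chac1 rose (0.77 ± 0.18, adjusted p = 0.031) and the chaperone gene Hsph1 fell (-0.77 ± 0.16, adjusted p = 0.018), with calls lost without α3α9 replicate 1 or either null array for Hsph1 and without α3α9 replicate 1 or any 1 of the α9 and null arrays for Chac1. Without any 1 of the arrays on which Chac1 depended 2 members of the list rose. None fell without α3α9 replicate 1 or null replicate 2, and 1 fell without α3α9 replicate 2, either α3 array or null replicate 1. Of 24 genes of cholesterol and fatty acid synthesis none rose and 1, the desaturase gene Scd1, fell (-1.14 ± 0.26, adjusted p = 0.025), a call lost without either null array. Without α3α9 replicate 1 the list had 3 falls, and without α3α9 replicate 2 it had 1 rise.

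**Figure D4:**
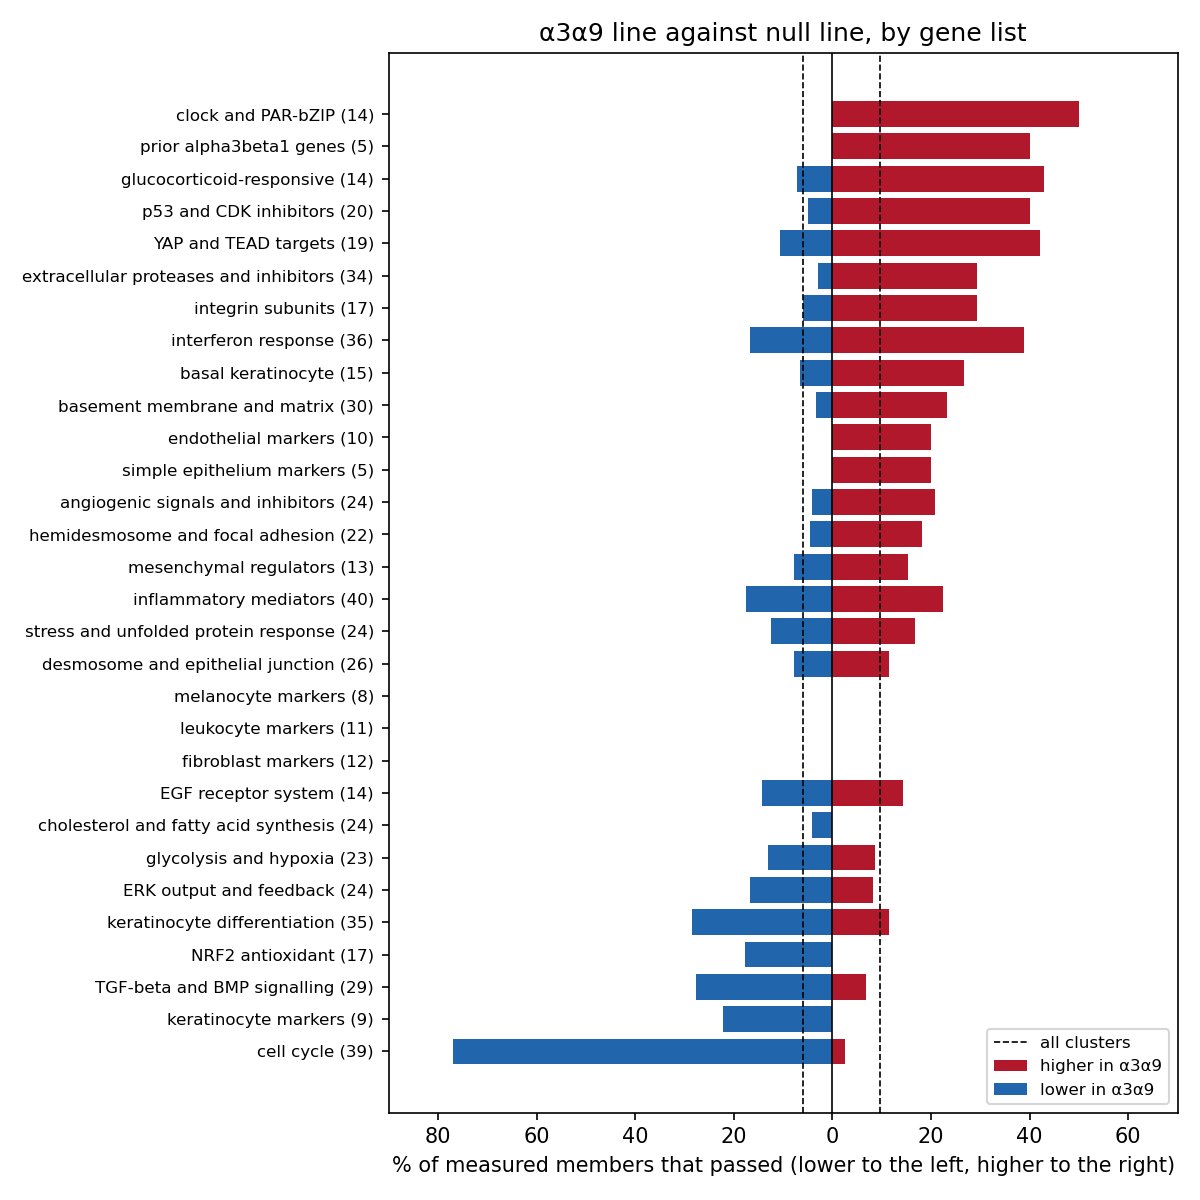
Bars give the share of measured members of each list (number in brackets) that passed in the α3α9 line against the null line, in percent, higher to the right in red and lower to the left in blue, and dashed lines give the shares over all clusters, 9.69% and 5.88%. Over genes, taken as 1 cluster each, the shares were 12.56% and 6.59%. The cell cycle list had the longest bar, with 30 of 39 members lower, and the bars of fibroblast, melanocyte and leukocyte markers are empty.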

How the data were processed

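RNA of 4 mouse keratinocyte lines, 2 samples each, was measured on Affymetrix Mouse Exon 1.0 ST arrays. The deposited values are intensities per transcript cluster, made by the authors with Affymetrix Expression Console and PLIER, per the submitters' processing notes. The Exon Array Computational Tool is also mentioned, in the series' own description. Software versions, genome build, filters and the meaning of the re-analysis mark were not given in the sources used here. Depth has no counterpart on arrays, and 2 arrays per line limit the precision.

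Each array was scaled to a common median of 102.5, 16 was added, and log2 values of 23332 clusters on 8 arrays were fitted with 1 mean per line (limma 3.58.1, R 4.3.3, lmFit and eBayes, 4 residual degrees of freedom), with Benjamini-Hochberg adjustment over all clusters at 0.05. Figures used Python 3.11.15 and matplotlib 3.10.9. The fit was also run on simulated arrays without array sets, with the same spread in every line and changes in the α3α9 line alone. Its settings differ from these data, so it does not check their error rates. The platform table gave 1 gene for 14996 clusters, several for 1019 and none for 7317, and 14941 of the 14996 matched a RefSeq gene, 14860 genes in all. A gene with several clusters is represented by the one with the highest mean. Exon array clusters report all transcripts of a gene together, and similar genes can share probes.

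Named in full were Itga3, Itga9, Itgb1, Sparc, Fbln2 and Ptgs2, the 12 largest rises and falls with 1 gene and no overlap of arrays, the 12 rises and falls beyond both single lines with the largest smaller difference from them, and up to 4 members per gene list with the largest change that passed. Predicted genes were passed over. Other list members named were chosen after their values were seen. Members and lists were chosen with earlier results of these data known. Alternatives were the unscaled intensities, quantile normalization, median centring, added values of 1 and 64, filters on level and annotation, other variance settings, a replicate block, a fit of only the compared lines and leaving out each array.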

Additional observations from a re-analysis of the deposited data

Results flagged for a closer look

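For 20 named genes the change of the α3α9 line differed from the sum of the changes of the α3 and α9 lines, by the interaction term of the same limma fit. Over all clusters 139 of 23332 passed this test (0.596%), 66 with a joint change above the sum and 73 below it. The term combines lines of both array sets, with each set holding 1 line with α3 and 1 without. It was not refitted under other processing or without single arrays. Most of the 20 genes were named because they lay furthest beyond both single lines in these same data, a choice that favours a large interaction term. Their number and the kinds of genes among them are therefore not a separate result.

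The joint change was above the sum in 10 genes. For Car6 it was above by 4.57 (adjusted p = 0.0018), for Klf15 by 3.11 (adjusted p = 0.0026), for Svop by 1.81 (adjusted p = 0.013), for B4galnt2 by 1.77 (adjusted p = 0.018) and for Tns1 by 1.55 (adjusted p = 0.027). Limch1 had 1.39 (adjusted p = 0.027), Vegfd 1.23 (adjusted p = 0.035) and Acox2 1.19 (adjusted p = 0.042). In Sostdc1, where each single line was already far below null, the joint change of -7.47 was 3.41 above the sum of -6.58 and -4.31 (adjusted p = 0.0026). That sum lies below the lowest change the added 16 allows from the null level of Sostdc1, so on this scale the joint change could only lie above it and the test carries no information. In Ifit2, lower with α3 and higher with α9, it was 2.18 above the sum (adjusted p = 0.014).

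The joint change was below the sum in the other 10. For Tslp the difference was -4.62 (adjusted p = 0.0026), for Il5ra -2.62 (adjusted p = 0.0076), for Tnfrsf26 -2.12 (adjusted p = 0.016), for Emp3 -1.82 (adjusted p = 0.045) and for Bcat1 -1.21 (adjusted p = 0.043). The remaining 5 were cornification and keratin genes, Sprr2e with -2.37 (adjusted p = 0.027), Sprr2h with -1.96 (adjusted p = 0.011), Krt16 with -1.65 (adjusted p = 0.038), Sprr1b with -1.51 (adjusted p = 0.023) and Sprr2d with -1.49 (adjusted p = 0.044).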

How the results depend on the processing

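Of 122 calls among the named genes 97 held without each single array and 25 were lost without at least 1, and no alternative turned a direction. All these calls were for the α3α9 line against null. The differences of single genes from the α3 and α9 lines, and the interaction results, were not checked in this way. Nearly all named genes were chosen for large changes that passed, so the share of their calls that held does not stand for all clusters. Over all clusters 1370 of the 3633 calls were kept on the unscaled intensities, and 1828 in the fit of only the compared lines. Of the 471 clusters beyond both single lines these fits kept 75 and 118. On the unscaled intensities the counts fell to 1383 (1064 higher, 319 lower) for the α3α9 line against null, 765 against the α3 line (499 and 266), 436 against the α9 line (244 and 192), 303 for α3 against null (221 and 82), 1009 for α9 against null (817 and 192) and 75 beyond both single lines (49 and 26), and 16 named calls were lost, those of Bnip3, Chac1, Dusp4, Dusp6, Fermt2, Gsta4, Hsph1, Id1, Itgav, Itgb1, Nrg1, Pdlim7, Phlda1, S100a4, Sfn and Tslp. The scaled splits were 2868 and 1331 against α3, 1257 and 597 against α9, 652 and 707 for α3 and 1666 and 1441 for α9 against null. Without scaling the median over all clusters for α9 against null was 0.16, against 0.03 with it. After quantile normalization the splits were 2297 and 1985 against null, 2352 and 2046 against α3, 1324 and 1004 against α9 and 326 and 218 beyond both. With 1 added, α3 against null gave 840 clusters, with 64 added 2321, with 737 beyond both. Among clusters with 1 gene it gave 2427, with 767 beyond both. The fit of only the compared lines gave 1867 for α3α9 against null, 1910 against α3, 514 against α9, 784 for α3 against null and 121 beyond both, from fewer residual degrees of freedom. The cause of the other movements was not tested.

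Leaving out each array gave 1464 to 3538 clusters for α3α9 against null, 811 to 4715 against α3, 514 to 1592 against α9, 290 to 1525 for α3 against null, 780 to 3644 for α9 against null and 139 to 575 beyond both, with the lone array of a line assumed to vary like the others. Same-numbered arrays shared only a number, the correlations of their deviations running from -0.198 to 0.05. The replicate block gave 2841 clusters for α3α9 against null and 314 beyond both, and moved α3 against null to 789. Dim transcripts limit precision, since between 9.29% and 11.3% of the values of an array lay under 16.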
